A study of Mus musculus with 8 samples.

Results

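The joint effect of losing T-bet and STAT6 was read gene by gene from where the double-mutant level lay relative to both single mutants. A level outside both can still equal the sum of the single differences. The departure from that sum, the interaction, is therefore given separately. A gene was taken as a member when its mean in cells lacking both factors lay above, or below, its mean in both single mutants, and genes in which the 3 mutants merely shared one offset from wild type (WT) were left out. This held for 5757 of the 10281 genes tested and of the 11841 gene symbols in the table. Among 3 means any given mean is the highest or lowest in most orderings, so this count is no measure of a joint effect. Most of the 5757 double-mutant means lay outside by little, so the description below rests on the 493 genes above and the 349 genes below both single mutants for which both differences passed the test.

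The cells were CD44+ CD4+ T cells, antigen-experienced helper T cells, of BALB/cAJcl mice, taken from the lymph nodes that drain the skin. The groups were T-bet-/- STAT6-/- (the double mutant), T-bet-/-, STAT6-/- and WT, with 2 libraries each and 8 in all. Cells of every group, WT included, were treated over 2 h with PMA and ionomycin, a pair of drugs that activates T cells without antigen, before total RNA was extracted. The labels name no Cre line, age or sex. They also do not say whether the libraries of a genotype are separate animals or cultures, and the p-values reflect no more than the spread of these libraries, part or all of which may be technical. RNA was measured in bulk, where fewer cells of a type and less RNA per cell cannot be told apart.

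T-bet, encoded by Tbx21, is the transcription factor that directs type 1 helper cells and the production of interferon gamma, and it opposes the other helper programmes. STAT6 carries the signal of the IL-4 and IL-13 receptors and supports type 2 helper cells. Another helper programme, type 3 or Th17, makes IL-17A, IL-17F and IL-22, cytokines that act on epithelium and are known for their part in skin inflammation.

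Promoters are shown for a pair of genes on which the results turn, Il17a, which was above both single mutants, and Il4, which was below both. Each window runs from 250 bases before to 50 bases after an annotated start site (RefSeq, GRCm38.p6), printed 5′ to 3′ on the gene's own strand. For Il17a (chr1:20730655-20730954, plus strand) the capitals mark an AP-1 motif (TGANTCA) that begins 244 bases before the start site.
Il17a: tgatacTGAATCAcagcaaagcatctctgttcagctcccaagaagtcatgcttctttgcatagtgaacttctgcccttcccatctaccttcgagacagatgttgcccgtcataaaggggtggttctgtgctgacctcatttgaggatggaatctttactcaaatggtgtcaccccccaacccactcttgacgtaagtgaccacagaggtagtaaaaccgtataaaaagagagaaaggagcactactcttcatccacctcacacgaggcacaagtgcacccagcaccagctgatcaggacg
For Il4 (chr11:53618616-53618915, minus strand) the capitals mark the STAT6-type motif, TTC and GAA with 4 bases between them, at 167 bases before the start site.
Il4: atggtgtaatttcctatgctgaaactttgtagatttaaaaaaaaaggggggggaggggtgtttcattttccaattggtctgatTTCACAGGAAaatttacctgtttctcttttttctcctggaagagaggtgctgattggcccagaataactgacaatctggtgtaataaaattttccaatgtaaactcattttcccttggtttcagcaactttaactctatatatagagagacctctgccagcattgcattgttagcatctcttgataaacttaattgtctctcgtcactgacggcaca
Such matches are common, and each is a description of letters and not a bound site. Searched on both strands, the AP-1 motif stood in 7.81% of the windows of genes above both single mutants, 4.91% of those below both and 4.73% of those of all tested genes. The STAT6-type motif stood in 4.79%, 5.26% and 5.41% of windows in that order, the STAT motif with 3 bases between TTC and GAA in 5.29%, 7.37% and 7.05%, and the T-box motif GGTGTGA in 3.53%, 3.86% and 3.29%. A window was at hand for 397 of the 493 genes above, 285 of the 349 below and 8227 of all tested genes.

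The targeted genes were read in each library first. Tbx21 had 2.49 and 2.09 FPKM in double-mutant cells, 1.44 and 1.54 in T-bet-/- cells, 102 and 92.1 in STAT6-/- cells and 30.8 and 31.6 in WT cells (FPKM, fragments corrected for the length of the transcript and the size of the library). Stat6 had 29.6 and 26.9 FPKM in double-mutant cells, 88.8 and 89.8 in T-bet-/-, 31.6 and 29.0 in STAT6-/- and 89.9 and 90.9 in WT cells. Both transcripts were lower in the libraries labelled as lacking the gene than in all others. Cd4, Cd44 and Cd3e, which define the sort, were present in all 8 libraries, with Cd4 at 88.1 and 110 FPKM in double-mutant cells, 114 to 122 in T-bet-/-, 127 to 128 in STAT6-/- and 195 to 208 in WT cells. The WT libraries stood apart from all mutants: 54.2% of tested genes were called in one direction from WT in all 3 mutants. Globin genes (2 of 10 erythroid markers in the table) summed to 2.63 and 4.15 FPKM in the double mutant, 7.36 and 7.48 in T-bet-/-, 6.53 and 2.65 in STAT6-/- and 442 and 224 in WT cells. The double-mutant libraries also differed from each other in the Y-linked genes (4 in the table), which summed to 29.5 and 67.9 FPKM there, 34.1 and 33.7 in T-bet-/-, 43.2 and 37.3 in STAT6-/- and 104 and 110 in WT cells. Without double-mutant replicate 1, 4 of these 4 genes were called above both single mutants. The part of these differences in the results was not tested.

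Called genes are those with an adjusted p under 0.05 in limma, with Benjamini-Hochberg adjustment over all tested genes, and all differences are in log2(FPKM + 1). For genes near 1 FPKM these are smaller than the true log2 ratios. The double mutant was called higher than T-bet-/- cells in 16.4% of tested genes and lower in 16.2% (32.6% in all). It was called higher than STAT6-/- cells in 11.3% and lower in 8.63% (19.9% in all). Both differences were called and positive in 493 genes (4.8%), and both called and negative in 349 (3.39%), shared-offset genes left out. In all 493 and all 349 the double-mutant libraries lay beyond the 4 single-mutant libraries. These genes were chosen by tests on the same libraries, so this follows largely from the choice and is no separate support. Over all tested genes the double-mutant libraries lay above in 18.6% and below in 16%. The nearer single mutant was typically close: the median distance from the double-mutant mean to the nearer single-mutant mean, called the margin here, was 0.32 above and -0.33 below. It reached 1 or more in size in 22 genes above and 6 below, and 0.5 or more in 105 and 53. These counts depended on single libraries. The count above was 222 without double-mutant replicate 2, 234 and 277 without STAT6-/- replicate 1 or 2, 281 and 241 without T-bet-/- replicate 1 or 2, and 708 without double-mutant replicate 1. The count below was 196 without double-mutant replicate 2, 145 and 190 without STAT6-/- replicate 1 or 2, and 195 and 201 without T-bet-/- replicate 1 or 2.

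**Figure D1:**
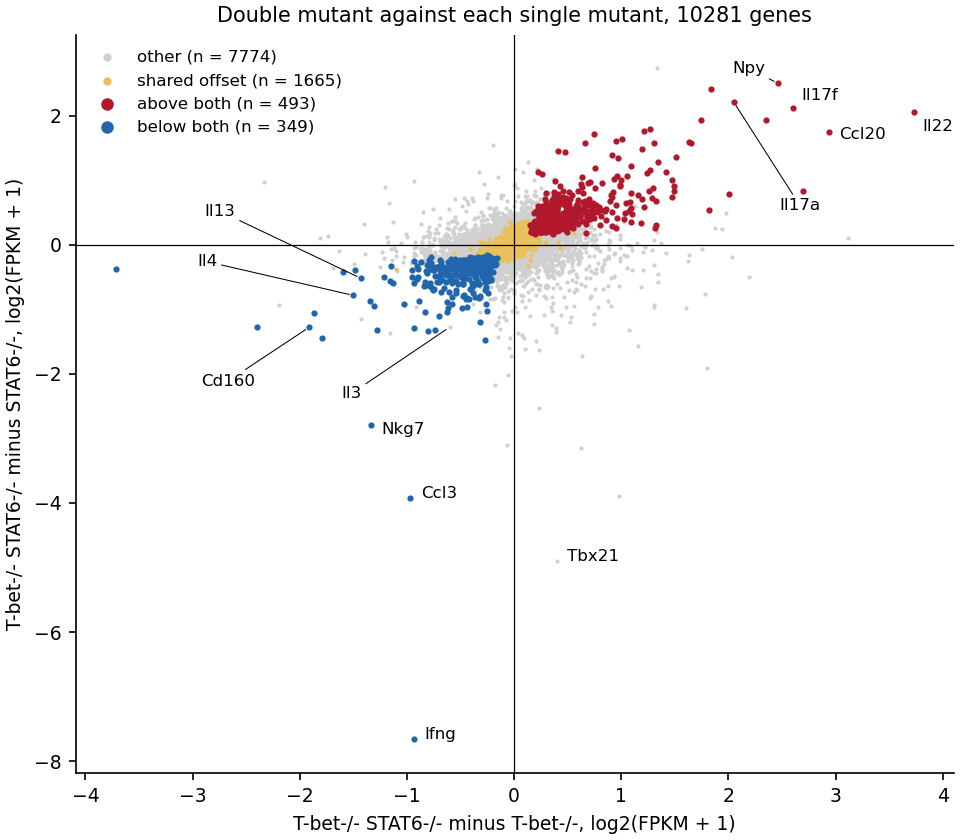
Each point is 1 of 10281 genes, with the double mutant minus T-bet-/- on the x axis and the double mutant minus STAT6-/- on the y axis, both on the log2(FPKM + 1) scale, coloured by class. Il17a, Il17f, Il22 and Ccl20 lie far to the upper right, Il4, Il13, Cd160 and Ifng to the lower left, and the 1665 shared-offset genes around the origin.

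Genes of the type 3 programme led the genes above both single mutants. Il17f, Il22, Il17a, Iltifb, Il23r and Ccl20 were among the 10 with the largest margins. Of 5 tested type 3 cytokine genes, 4 (Il17a, Il17f, Il22 and Ccl20) were above both and 0 below (4.8% and 3.39% over all tested genes). The medians of the list were 2.60 against T-bet-/- and 2.05 against STAT6-/-, where the medians over all tested genes were 0.01 in both comparisons. The count of 4 was the same under every alternative tried. The fifth, Il21, which supports germinal centres and Th17 cells, lay between the single mutants, at 1130 and 1134 FPKM in double-mutant cells, 521 and 534 in T-bet-/-, 1467 and 1516 in STAT6-/- and 335 and 387 in WT cells.

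Il17a, the signature Th17 cytokine (gene at chr1:20730905-20734496), had 2373.8 and 2620.5 FPKM in double-mutant cells, 617 and 586 in T-bet-/-, 500 and 581 in STAT6-/- and 270 and 243 in WT cells. Both double-mutant libraries were far above all others, while the single mutants lay close to each other and above WT. The double mutant averaged 4.15 times the T-bet-/- and 4.62 times the STAT6-/- mean, with log2 differences of 2.05 ± 0.09 (SE, adjusted p = 3.02e-06) and 2.21 ± 0.09 (adjusted p = 2.23e-06). Il17f, its neighbour and dimer partner (chr1:20777146-20785274), had 4162.9 and 4691.2 FPKM in double-mutant cells, 724 and 730 in T-bet-/-, 968 and 1071.9 in STAT6-/- and 309 and 268 in WT cells. Its 4 genotypes did not overlap, and the double mutant rose 2.60 ± 0.09 above T-bet-/- and 2.12 ± 0.09 above STAT6-/- cells.

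Il22, which acts on skin and gut epithelium (chr10:118204584-118210047), had 123 and 162 FPKM in double-mutant cells, 9.64 and 9.73 in T-bet-/-, 32.6 and 33.8 in STAT6-/- and 21.3 and 24.1 in WT cells. The single losses went in opposite directions: T-bet-/- cells fell by 1.15 ± 0.11 and STAT6-/- cells rose by 0.53 ± 0.11 from WT, while the double mutant rose by 2.58 ± 0.11 (adjusted p = 1.95e-07). Its mean was 14.7 times that of T-bet-/- and 4.29 times that of STAT6-/- cells. Iltifb, a near copy of Il22 on the same chromosome, followed with 23.9 and 37.7 FPKM in double-mutant cells, 4.71 and 5.46 in T-bet-/-, 7.08 and 7.26 in STAT6-/- and 11.5 and 11.7 in WT cells. The transcripts of the 2 genes are identical in 1081 of 1110 aligned bases (97.4%), so the split of reads between them is uncertain.

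Ccl20, the ligand of the chemokine receptor CCR6 (chr1:83116766-83119167), had 1312.9 and 1424.5 FPKM in double-mutant cells, 178 and 178 in T-bet-/-, 371 and 452 in STAT6-/- and 78.2 and 73.3 in WT cells. The 4 genotypes did not overlap, and the double mutant was 7.69 times T-bet-/- and 3.33 times STAT6-/- (log2 difference 1.74 ± 0.09, adjusted p = 7.49e-06). Ccr6 itself had 83.1 and 85.7 FPKM in double-mutant cells, 41.6 and 41.6 in T-bet-/-, 26.9 and 26.3 in STAT6-/- and 23.4 and 27.8 in WT cells, so that STAT6-/- and WT cells overlapped (difference 0.06 ± 0.07, adjusted p = 0.528).

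Some receptors and regulators of the programme were above both single mutants, and others were not. Over all tested genes 4.8% were above both, 3.39% below both and 16.2% in the shared-offset class. In a list of 16 receptors and regulators that was added after results had been seen, 15 were tested, 7 were above both (Ahr, Il23r, Il1r1, Ccr6, Tmem176a, Tmem176b and Ltb4r1), Il21r was below both and Irf4 was in the shared-offset class. The count below both was 0 without T-bet-/- replicate 1 and 2 with quantile scaling. Il23r, the receptor for IL-23, which sustains Th17 cells, had 20.5 and 25.0 FPKM in double-mutant cells, 5.94 and 6.21 in T-bet-/-, 4.40 and 6.08 in STAT6-/- and 4.25 and 4.34 in WT cells. Here each single loss did little, with 0.42 ± 0.13 in T-bet-/- cells (adjusted p = 0.0164) and 0.22 ± 0.13 in STAT6-/- cells (adjusted p = 0.146), and the double mutant rose by 2.16 ± 0.13. Il1r1, a receptor for IL-1, had 7.15 and 8.37 FPKM in double-mutant cells, 4.16 and 4.21 in T-bet-/-, 2.48 and 3.25 in STAT6-/- and 2.92 and 2.90 in WT cells. It rose from WT in the double mutant by 1.16 ± 0.11, and STAT6-/- and WT cells overlapped. Ahr, a ligand-dependent factor needed for Il22, had 72.1 and 71.6 FPKM in double-mutant cells, 34.4 and 34.1 in T-bet-/-, 44.8 and 46.9 in STAT6-/- and 17.6 and 20.7 in WT cells, close to the sum of the single differences (interaction -0.17 ± 0.10, adjusted p = 0.178). That interaction was called without WT replicate 2 (-0.28, adjusted p = 0.0162).

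**Figure D2:**
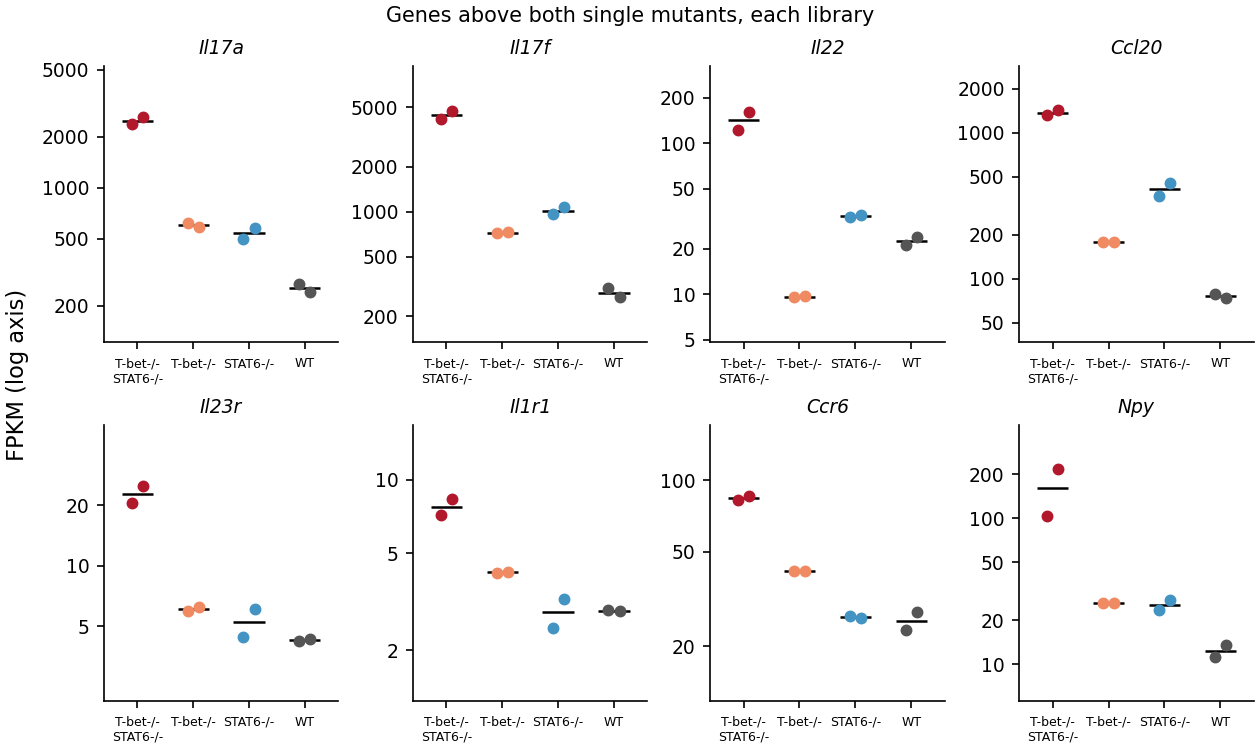
FPKM on a log axis for 8 genes above both single mutants, each point 1 library and each bar the mean of 2, with the genotypes in the order double mutant, T-bet-/-, STAT6-/- and WT. In every panel both double-mutant libraries lie above the other 6, as for Il17a at 2373.8 and 2620.5 FPKM, and the double-mutant libraries of Npy lie apart, at 103 and 216 FPKM.

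Genes of other kinds also had large margins above both. Npy, which encodes neuropeptide Y, had 103 and 216 FPKM in double-mutant cells, 26.4 and 26.1 in T-bet-/-, 23.7 and 27.6 in STAT6-/- and 11.2 and 13.6 in WT cells. Its margin of 2.46 was the largest of all, and it was 1.93 without double-mutant replicate 2 and 2.996 without replicate 1. Cpe, a carboxypeptidase that trims peptide hormones, had 18.3 and 21.8 FPKM in double-mutant cells, 5.06 and 4.70 in T-bet-/-, 2.79 and 3.13 in STAT6-/- and 3.23 and 2.82 in WT cells. Double-mutant cells stood alone for Cpe, and STAT6-/- and WT cells overlapped. Pkdcc, a secreted kinase, was near 1 FPKM in the single mutants and had 4.20 and 5.41 FPKM in double-mutant cells, 0.854 and 0.861 in T-bet-/-, 0.833 and 1.01 in STAT6-/- and 0.308 and 0.259 in WT cells. The membrane protein gene Tmem176b and the adhesion gene Vcam1 fell with each single loss and rose with both, and Tmem176a, the neighbour of Tmem176b, fell with STAT6 loss alone (-0.84 ± 0.15) and rose with both (0.96 ± 0.15). Tmem176b had 15.4 and 18.9 FPKM in double-mutant cells, 7.82 and 5.91 in T-bet-/-, 4.07 and 4.60 in STAT6-/- and 10.2 and 10.4 in WT cells. Vcam1 had 15.9 and 17.4 FPKM in double-mutant cells, 4.93 and 5.65 in T-bet-/-, 8.88 and 8.88 in STAT6-/- and 10.8 and 15.05 in WT cells, and its rise from WT was small (0.36 ± 0.13, adjusted p = 0.0322). Tnfrsf8, which encodes the activation receptor CD30, had 6.34 and 10.2 FPKM in double-mutant cells, 3.02 and 2.69 in T-bet-/-, 3.45 and 2.97 in STAT6-/- and 2.87 and 3.52 in WT cells, where the other 3 genotypes overlapped.

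Markers of other cells that make type 3 cytokines were read beside these genes. Kit, the receptor for stem cell factor, which mast cells and some innate lymphoid cells carry, had 56.7 and 62.9 FPKM in double-mutant cells, 8.67 and 8.11 in T-bet-/-, 32.5 and 34.0 in STAT6-/- and 18.1 and 18.6 in WT cells. 5830411N06Rik, also named Scart2 and known from gamma-delta T cells, had 42.9 and 40.6 FPKM in double-mutant cells, 14.99 and 13.9 in T-bet-/-, 19.2 and 21.9 in STAT6-/- and 10.03 and 7.95 in WT cells. Both genes were thus highest in the double mutant. In a list of 11 gamma-delta T and innate lymphoid genes, also added after results had been seen, 6 were tested and 3 were above both (these 2 and Il1r1), against 4.8% of all tested genes. The other tested members, Blk, Cd163l1 and Il7r, were called from neither single mutant. The 7 in the table, with the 3 above both among them, summed to 194 and 198 FPKM in double-mutant cells, 106 and 108 in T-bet-/-, 144 and 147 in STAT6-/- and 95.1 and 92.8 in WT cells. The part of such cells in the type 3 result was not tested. The mast cell and basophil list had 2 tested genes, and the other, Hdc, did not follow Kit (1.29 and 1.17 FPKM in double-mutant cells, 1.35 and 1.41 in T-bet-/-, 1.21 and 0.927 in STAT6-/-, 1.39 and 1.32 in WT cells). Among tested markers of NK or innate-like cells (3), myeloid and dendritic cells (7), CD8 T cells (1) and B cells (5), 0 were above and 0 below both, but for 1 myeloid or dendritic gene below with quantile scaling. B cell markers summed to 73.3 and 78.1 FPKM in double-mutant cells, 61.3 and 58.0 in T-bet-/-, 172 and 75.1 in STAT6-/- and 111 and 69.7 in WT cells. Of 3 tested keratinocyte markers Dsp was below both, though not with a pseudocount of 0.1. That list summed to 48.8 and 55.0 FPKM in double-mutant cells, 40.9 and 38.7 in T-bet-/-, 58.1 and 57.4 in STAT6-/- and 11.4 and 11.7 in WT cells. The part of such cells in the results was not tested.

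Type 2 and growth factor cytokine genes lay under the sum of the single differences, and 3 of them lay below both single mutants. All 9 tested genes of the type 2 and growth factor cytokine list had a negative called interaction, meaning a double-mutant level under the sum of the single differences on the log2 scale, with a median of -1.59 (0.01 over all tested genes, of which 29.6% had a positive and 27.7% a negative called interaction). The 10 genes of the list in the table summed to 2891 and 3020 FPKM in double-mutant cells, 4490 and 4436 in T-bet-/-, 4867 and 4882 in STAT6-/- and 902 and 810 in WT cells. The sum was thus lowest in WT, and a rise from WT that the mutants share gives a negative interaction by construction. In the shared-offset class were 0 of the 9. Over all tested genes 4.8% were above both and 3.39% below both. Of the 9, Il4, Il13 and Csf1 were below both single mutants and Il9 was above both, and the count below was 1 without STAT6-/- replicate 1. Il4, the cytokine that induces type 2 helper cells (chr11:53612460-53618665), had 747 and 711 FPKM in double-mutant cells, 2078.5 and 2048.5 in T-bet-/-, 1238.1 and 1275.1 in STAT6-/- and 183 and 117 in WT cells. The 4 genotypes did not overlap, and the double mutant lay between WT and both single mutants. It was lower than T-bet-/- by a log2 difference of -1.50 ± 0.16 (adjusted p = 0.000324) and lower than STAT6-/- by -0.79 ± 0.16 (adjusted p = 0.0112). The single differences from WT, 3.81 and 3.09, summed to 6.90, against 2.31 ± 0.16 in the double mutant (interaction -4.59 ± 0.23, adjusted p = 4.86e-06). The position below both was lost without STAT6-/- replicate 1 (adjusted p = 0.0632) or 2 (0.0647) and without double-mutant replicate 2 (0.0564), while the difference stayed between -0.75 and -0.88 over all alternatives.

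Il13, whose product drives mucus and IgE-linked responses (chr11:53631323-53634702), had 619 and 525 FPKM in double-mutant cells, 1556.4 and 1521.8 in T-bet-/-, 865 and 775 in STAT6-/- and 271 and 248 in WT cells. As with Il4, the genotypes did not overlap and the double mutant lay nearest to WT, at -0.52 ± 0.09 from STAT6-/- cells (adjusted p = 0.00533, and 0.0537 without STAT6-/- replicate 1). The singles summed to 4.22, against 1.14 ± 0.09 in the double mutant. Il3, a growth factor of mast cells and basophils (chr11:54265085-54267279), had 71.8 and 38.7 FPKM in double-mutant cells, 81.3 and 79.6 in T-bet-/-, 125 and 133 in STAT6-/- and 24.6 and 19.7 in WT cells. Both double-mutant libraries lay below all single-mutant libraries, yet they lay apart and the difference from T-bet-/- did not pass (-0.60 ± 0.23, adjusted p = 0.0734). It was -1.04 (adjusted p = 0.000769) without double-mutant replicate 1 and -0.16 (adjusted p = 0.347) without replicate 2, and it passed with quantile scaling (-0.70, adjusted p = 0.0441). The interaction of Il3 passed, at -3.10 ± 0.32 (adjusted p = 9.27e-05).

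Other growth factor genes took other positions. Il9, a growth factor of mast cells (chr13:56479277-56482257), had 15.9 and 16.2 FPKM in double-mutant cells, 6.97 and 8.76 in T-bet-/-, 4.54 and 4.62 in STAT6-/- and 0.130 and 0.498 in WT cells. The 4 genotypes did not overlap, with the double mutant highest and WT lowest, and the log2 interaction was negative (-1.15 ± 0.19, adjusted p = 0.00105). On linear FPKM the double mutant exceeded the sum of the single differences by 3.90 FPKM, so the sign for Il9 depends on the scale. With a pseudocount of 0.1 Il9 was no longer called above both (adjusted p = 0.052). Csf1, the macrophage growth factor, had 17.5 and 18.6 FPKM in double-mutant cells, 27.97 and 26.8 in T-bet-/-, 33.5 and 31.6 in STAT6-/- and 29.0 and 30.9 in WT cells. Neither single loss moved Csf1 past the test from WT (adjusted p = 0.0985 and 0.123), and the double mutant fell by 0.70 on the log2 scale. Il5, which supports eosinophils, was in between the singles, with 54.1 and 54.6 FPKM in double-mutant cells, 272 and 286 in T-bet-/-, 31.7 and 23.4 in STAT6-/- and 32.1 and 21.0 in WT cells.

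**Figure D3:**
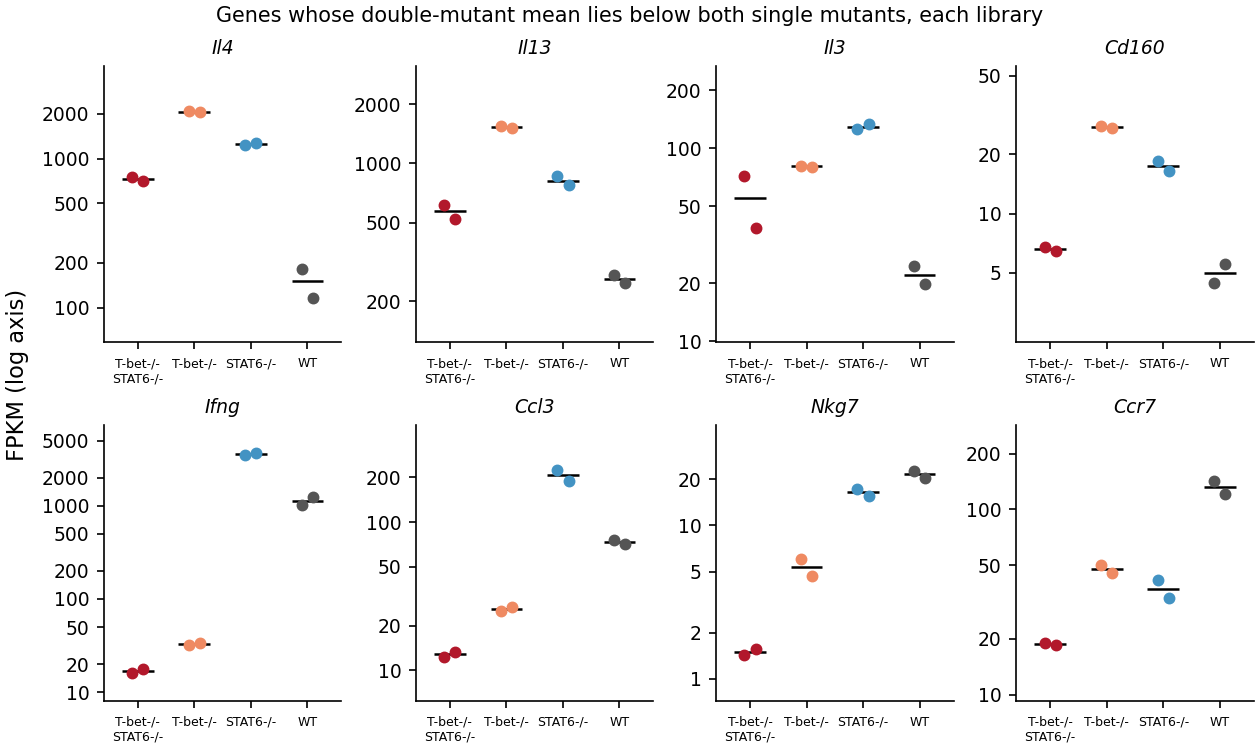
FPKM on a log axis for 8 genes whose double-mutant mean lies below both single-mutant means, each point 1 library and each bar the mean of 2. For Il4, Il13, Il3 and Cd160 the double mutant lies between the single mutants and WT or near WT, while for Ifng, Ccl3, Nkg7 and Ccr7 it is the lowest genotype, as at 16.0 and 17.8 FPKM for Ifng.

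Type 1 and cytotoxic genes were among those farthest below both. Over all tested genes 3.39% were below both and 4.8% above both. Ifng, the type 1 cytokine (chr10:118441046-118445894), had 16.0 and 17.8 FPKM in double-mutant cells, 32.4 and 33.9 in T-bet-/-, 3515.8 and 3704.2 in STAT6-/- and 1028.5 and 1250.4 in WT cells. The STAT6 loss went with a rise in T-bet-sufficient cells (1.67 ± 0.09) and with a fall in T-bet-/- cells (-0.93 ± 0.09, adjusted p = 0.0002), an interaction of -2.60 ± 0.13 (adjusted p = 4.86e-06). Ccl3, a chemokine for monocytes and T cells, had the same order, with 12.4 and 13.2 FPKM in double-mutant cells, 25.0 and 26.9 in T-bet-/-, 226 and 190 in STAT6-/- and 75.7 and 71.1 in WT cells. Nkg7, a granule membrane protein, had 1.43 and 1.57 FPKM in double-mutant cells, 6.05 and 4.65 in T-bet-/-, 17.2 and 15.6 in STAT6-/- and 22.5 and 20.5 in WT cells. Its interaction was -0.97 ± 0.15 on the log2 scale and 1.197 FPKM, positive, on linear FPKM. Double-mutant cells were lowest for each of these 3 genes. Ctsw, cathepsin W of cytotoxic cells, had 4.16 and 4.13 FPKM in double-mutant cells, 8.404 and 7.92 in T-bet-/-, 9.80 and 9.46 in STAT6-/- and 31.3 and 24.6 in WT cells. Of 11 tested cytotoxic granule genes these 2 were below both and 0 above (1 without double-mutant replicate 1), and Gzmb, which encodes granzyme B, was not called from STAT6-/- cells, with 109 and 197 FPKM in double-mutant cells, 15.5 and 16.5 in T-bet-/-, 138 and 135 in STAT6-/- and 13.1 and 12.9 in WT cells.

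Cd160, a receptor for the TNF receptor family member HVEM (chr3:96798763-96829351), was the only member below both among 13 tested coinhibitory receptor genes (3.39% over all tested genes). It had 6.76 and 6.43 FPKM in double-mutant cells, 28.01 and 27.2 in T-bet-/-, 18.5 and 16.4 in STAT6-/- and 4.44 and 5.57 in WT cells. Each single loss raised Cd160, by 2.26 and 1.63, and both together left it 0.35 ± 0.09 above WT (interaction -3.54 ± 0.13, adjusted p = 3.28e-06). A second coinhibitory gene was below both when double-mutant replicate 1 was left out. AA465934, a gene without a functional name here, had 1.60 and 2.00 FPKM in double-mutant cells, 36.6 and 34.9 in T-bet-/-, 2.86 and 2.41 in STAT6-/- and 2.92 and 2.89 in WT cells. It was high in T-bet-/- cells alone, and its small distance below STAT6-/- cells (-0.38 ± 0.09, adjusted p = 0.0209) was not called without STAT6-/- replicate 1 (adjusted p = 0.142) or double-mutant replicate 1 (0.0843).

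**Figure D4:**
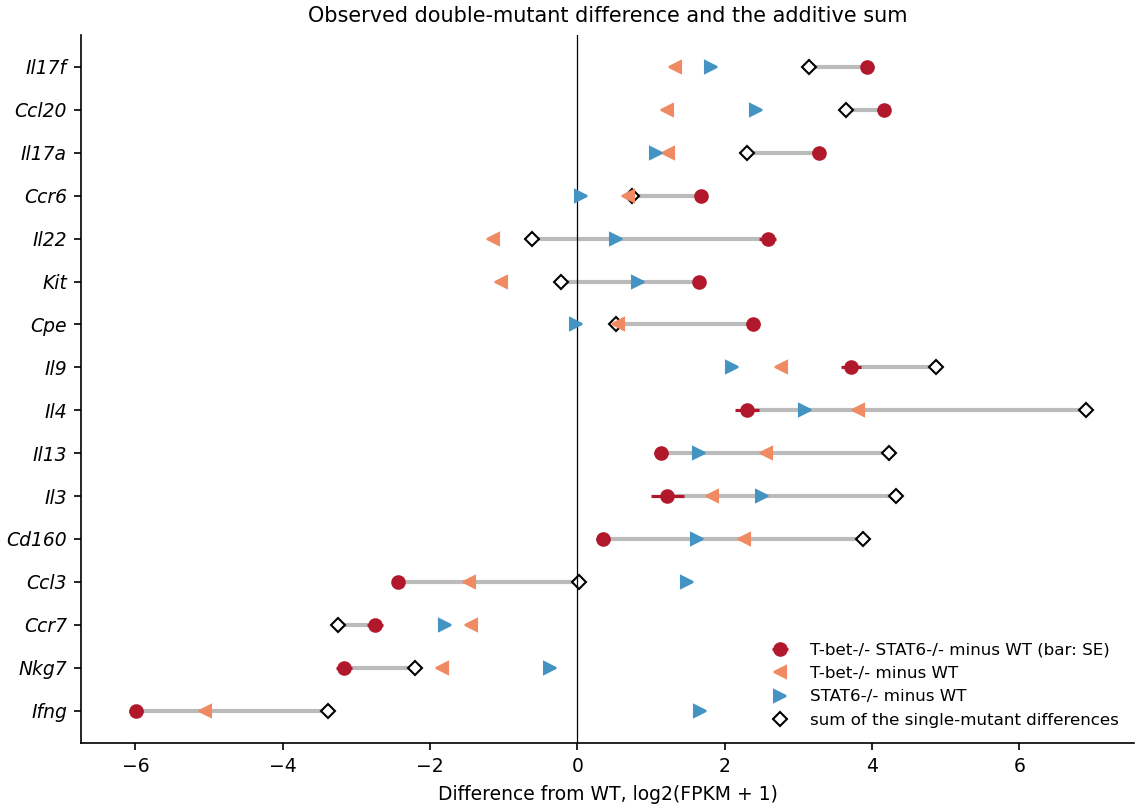
For 16 genes, the double-mutant difference from WT (circle, bar 1 SE), the T-bet-/- and STAT6-/- differences (triangles) and the sum of the single differences (open diamond), all on the log2(FPKM + 1) scale. Il22 lies at 2.58 where the sum is -0.62, and Il4 lies at 2.31 where the sum is 6.90.

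Some genes of regulatory T cells (Treg) were below both, though the list as a whole was split. Of its 15 tested genes, 5 were called higher and 6 lower than in T-bet-/- cells (median 0.16). Against STAT6-/- cells 0 were called higher and 10 lower (median -0.37). Listed genes summed to 5186 and 5673 FPKM in double-mutant cells, 3538 and 3536 in T-bet-/-, 7417 and 7569 in STAT6-/- and 4267 and 4300 in WT cells. Over all tested genes 3.39% were below both. Of 15 tested Treg genes, 6 (Lrrc32, Folr4, Ikzf2, Gpr83, Tnfrsf18 and Nrp1) were below both and 0 above, a count that was 3 without STAT6-/- replicate 1. Ikzf2 was not called below both without STAT6-/- replicate 1 (adjusted p = 0.0733) or 2 (0.126) or double-mutant replicate 2 (0.0983), and Gpr83 without STAT6-/- replicate 1 (0.14) or double-mutant replicate 1 (0.0811). Lrrc32, which anchors latent TGF-beta on Treg cells, had 4.96 and 3.89 FPKM in double-mutant cells, 19.7 and 17.9 in T-bet-/-, 11.5 and 9.17 in STAT6-/- and 24.6 and 21.7 in WT cells. Its fall from T-bet-/- cells was -1.87 ± 0.12 and from STAT6-/- cells -1.06 ± 0.12, with no overlap. Foxp3, the defining Treg factor, was not called from either single mutant, with 97.4 and 113 FPKM in double-mutant cells, 95.6 and 91.9 in T-bet-/-, 120 and 113 in STAT6-/- and 85.2 and 90.6 in WT cells. Among 19 tested chemokine receptor genes 2 were above both (Ccr6 and S1pr1) and 2 below (Ccr7 and Ccr8). Ccr7, the receptor that guides T cells into lymph nodes, had 19.1 and 18.5 FPKM in double-mutant cells, 50.2 and 45.6 in T-bet-/-, 41.6 and 33.2 in STAT6-/- and 143 and 122 in WT cells. Ccr8, a receptor of skin-homing and Treg cells, had 95.01 and 104 FPKM in double-mutant cells, 265 and 246 in T-bet-/-, 188 and 177 in STAT6-/- and 445 and 475 in WT cells. For both receptors each loss lowered the level and both losses lowered it further, and the interaction of Ccr8 was near 0 (-0.02 ± 0.10, adjusted p = 0.871), so on the log2 scale Ccr8 was close to the sum. On linear FPKM it exceeded the sum of the single differences by 122 FPKM. Sostdc1, a secreted antagonist of BMP and Wnt signals, had 1.70 and 1.62 FPKM in double-mutant cells, 8.76 and 7.71 in T-bet-/-, 6.06 and 6.37 in STAT6-/- and 6.41 and 6.11 in WT cells, and fell from WT in the double mutant and in neither single mutant (STAT6-/- minus WT -0.01 ± 0.08, T-bet-/- minus WT 0.35 ± 0.08).

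Spin4, 2210039B01Rik and Mir27a were also among the 10 with the largest margins below, at -0.94, -1.28 and -1.27. Spin4, a chromatin reader of the Spindlin family, had 1.65 and 1.22 FPKM in double-mutant cells, 3.43 and 3.85 in T-bet-/-, 4.52 and 5.39 in STAT6-/- and 6.02 and 7.65 in WT cells. The uncharacterised 2210039B01Rik had 5.88 and 5.75 FPKM in double-mutant cells, 15.1 and 16.0 in T-bet-/-, 18.6 and 13.8 in STAT6-/- and 47.9 and 41.9 in WT cells. Mir27a, whose FPKM covers a short hairpin gene and not the mature microRNA, had 27.2 and 24.7 FPKM in double-mutant cells, 152 and 131 in T-bet-/-, 52.8 and 77.4 in STAT6-/- and 365 and 222 in WT cells. The double mutant was the lowest genotype and WT the highest for each of the 3.

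Many genes of protein folding in the endoplasmic reticulum were above both. Over all tested genes 4.8% were above both and 3.39% below both, with medians of 0.01 in both comparisons. Of 19 tested genes of the protein folding list 11 were above both and 0 below, with medians of 0.46 against T-bet-/- and 0.20 against STAT6-/- cells. The count was 5 and 7 without STAT6-/- replicate 1 or 2, 7 without double-mutant replicate 2 and 7 without T-bet-/- replicate 1. Sdf2l1, a cofactor of the chaperone BiP, had 20.1 and 24.0 FPKM in double-mutant cells, 11.2 and 11.4 in T-bet-/-, 12.5 and 12.5 in STAT6-/- and 12.5 and 9.93 in WT cells. Hspa5, which encodes BiP, had 784 and 733 FPKM in double-mutant cells, 546 and 553 in T-bet-/-, 632 and 647 in STAT6-/- and 658 and 644 in WT cells. Herpud1, a gene of the degradation of misfolded proteins, had 35.2 and 37.8 FPKM in double-mutant cells, 24.4 and 21.5 in T-bet-/-, 22.9 and 22.4 in STAT6-/- and 36.1 and 31.9 in WT cells. For Herpud1 each single loss lowered the level and the double mutant was not called from WT (0.10 ± 0.08, adjusted p = 0.282), whereas Sdf2l1 rose above all 3 other genotypes.

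Cell cycle genes were higher in the double mutant than in STAT6-/- cells and departed from the sum in one direction. All 30 tested members had a positive called interaction, with a median of 0.89, against 29.6% of all tested genes. Of the 30, 9 were above both and 0 below, against 4.8% and 3.39% of all tested genes. The list summed to 520 and 575 FPKM in double-mutant cells, 502 and 486 in T-bet-/-, 408 and 416 in STAT6-/- and 701 and 660 in WT cells. The sum was thus highest in WT, and a fall from WT that the mutants share gives a positive interaction by construction. In the shared-offset class was 1 of the 30. The median differences of the list were 0.24 against T-bet-/- and 0.58 against STAT6-/- cells, and 27 of the 30 were called higher than in STAT6-/- cells. The count above both was 15 without double-mutant replicate 1, 4 without double-mutant replicate 2, 4 and 5 without STAT6-/- replicate 1 or 2, and 5 and 3 without T-bet-/- replicate 1 or 2. Mcm3, a subunit of the replicative helicase, had 33.5 and 39.5 FPKM in double-mutant cells, 26.0 and 24.8 in T-bet-/-, 22.02 and 23.1 in STAT6-/- and 33.5 and 30.2 in WT cells. Ccna2, the cyclin of S phase and G2, had 8.89 and 10.7 FPKM in double-mutant cells, 6.73 and 6.95 in T-bet-/-, 5.36 and 6.01 in STAT6-/- and 9.05 and 8.23 in WT cells. Neither was called between the double mutant and WT (adjusted p = 0.0677 and 0.156).

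Other lists held few members on either side. Over all tested genes 4.8% were above both and 3.39% below both. A positive interaction was called in 29.6% and a negative in 27.7% of them, and 8.63% were called lower than in STAT6-/- cells. Of 17 tested interferon-inducible GTPase genes, 5 (Gbp4, Gbp8, Gbp9, Ifi47 and Gvin1) were below both, and 17 were lower than in STAT6-/- cells, but the list's median against T-bet-/- cells was -0.04. The count of 5 was 3 without double-mutant replicate 2 or T-bet-/- replicate 1 and 1 without T-bet-/- replicate 2. Of 23 tested interferon-stimulated antiviral genes 0 were above and 0 below both (1 below without double-mutant replicate 2), and 5 were in the shared-offset class. Of 36 tested immediate early genes, 1 was above and 3 below, while 8 were in the shared-offset class (16.2% of all tested genes) and 24 had a positive called interaction. These 36 genes summed to 16224 and 15954 FPKM in double-mutant cells, 15631.5 and 14831 in T-bet-/-, 16899 and 15447.5 in STAT6-/- and 24406 and 25033 in WT cells. The sum was thus highest in WT, and a fall from WT that the mutants share gives a positive interaction by construction. The 1 above, Myc, was lost without STAT6-/- replicate 2, and a count of 2 was reached without double-mutant replicate 2. The 3 below (Nr4a2, Tnfaip3 and Dusp5) were 0 without STAT6-/- replicate 1, 1 without double-mutant replicate 2, and 5 without double-mutant replicate 1 or with quantile scaling. Heat shock genes went the other way in the interaction, with 1 positive and 10 negative of 17, and 1 (Hspa9) above and 0 below both. Of the 17, 5 were in the shared-offset class (16.2% of all tested genes). In that class the interaction is opposite in sign to the offset by construction. Hspa9 was not called above both with quantile scaling (adjusted p = 0.197) or without STAT6-/- replicate 1 (0.0937) or T-bet-/- replicate 1 (0.0766) or 2 (0.0614). Of 7 tested type 1 cytokine genes and Il2, 2 were above (Osm and Lif) and 3 below (Ifng, Lta and Ltb), and Ltb was not called below both without STAT6-/- replicate 1, double-mutant replicate 1 or T-bet-/- replicate 1.

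Where the double mutant stood relative to WT differed between classes of genes. The double mutant was called higher than WT in 36.3% and lower in 36.7% of all tested genes (73% in all), T-bet-/- cells in 34.2% and 36.3% (70.6%) and STAT6-/- cells in 34.9% and 36.1% (71%). Of the 493 genes above both, 378 were also called higher than WT, 82 were not called from WT and 33 were called lower than WT. Of the 349 below both, 292 were also called lower than WT, 33 were not called and 24, among them Il4, Il13 and Cd160, were called higher than WT. The 378 were 175 without double-mutant replicate 2, 185 and 211 without STAT6-/- replicate 1 or 2, and 217 and 196 without T-bet-/- replicate 1 or 2. The 292 were 166 without double-mutant replicate 2, 125 and 165 without STAT6-/- replicate 1 or 2, and 166 and 171 without T-bet-/- replicate 1 or 2. Of the genes above both, 241 had both single mutants called higher than WT and 109 had both called lower. In 74 neither single mutant was called from WT, and the same held for 58 of the genes below both.

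The interaction by itself did not single out these genes. It was called in 5889 of 10281 tested genes (57.3%), and in 4471 of those (75.9%) all 3 mutants were called in one direction from WT. Where 3 mutants share one offset, the interaction equals minus that offset by construction. The shared-offset class (all 3 mutants called one way, with a range among their means of at most 0.25 of the mean offset) held 1665 genes (16.2%), and the interaction was called in 1583 of them. Genes just inside the limit were Ebna1bp2 and Lrch1, and just outside Sytl3 and Psen2. Hba-a1, an alpha globin gene, had 1.74 and 2.39 FPKM in double-mutant cells, 3.54 and 3.46 in T-bet-/-, 3.62 and 1.38 in STAT6-/- and 230 and 109 in WT cells, and an interaction of 5.03 ± 0.50. Ncs1, a neuronal calcium sensor, had 37.7 and 39.3 FPKM in double-mutant cells, 30.7 and 28.5 in T-bet-/-, 31.7 and 32.2 in STAT6-/- and 3.04 and 3.52 in WT cells, and an interaction of -2.58 ± 0.10. In both genes WT stood far from the mutants. For Ncs1 the double mutant was still called above T-bet-/- (0.37 ± 0.07, adjusted p = 0.00475) and above STAT6-/- cells (0.26 ± 0.07, adjusted p = 0.0307). Ncs1 is 1 of 32 genes with both differences called and positive that the shared-offset limit left out of the genes above both. Below both, 5 genes were left out in this way. Among genes above both the interaction was called positive in 230, negative in 128 and not called in 135. Among those below both it was called negative in 149, positive in 78 and not called in 122.

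**Figure D5:**
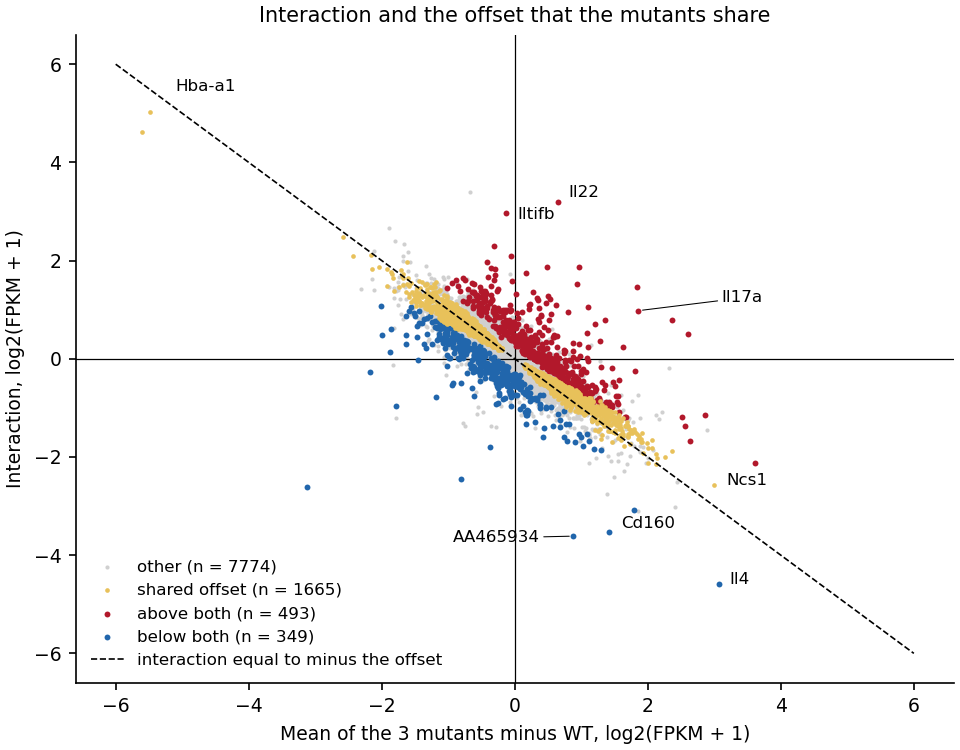
The interaction of each of 10281 genes (y axis) against the mean difference of the 3 mutants from WT (x axis), both on the log2(FPKM + 1) scale, with a dashed line where the interaction equals minus the offset. The 1665 shared-offset genes lie along the line, genes above both single mutants above it and genes below both under it. These positions follow by construction from how the classes are defined. Il22 lies at 3.20 and Il4 at -4.59.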

How the data were processed

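The deposited table holds 1 FPKM column per library, made by the authors with Cufflinks on mouse build mm10, per the submitters' processing notes. Not given in the sources used here are the aligner, the versions and the use of strand. All 11906 lines exceeded 0.1 FPKM in every library, so a gene under that level in any library is not listed and is not analysed here. Where a symbol had several lines (43 symbols), only that of highest mean entered, and 65 lines were set aside. The depth of the libraries is not printed. From the steps between low values of 507 genes it was estimated relative to WT replicate 1 as 0.856 to 1.04, an estimate that rests on 9 to 29 genes per library. Few values fell on such steps, so reads were not recovered and no count model was used. The absolute depth is unknown, and no counting interval is given.

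Genes with at least 1 FPKM in at least 2 libraries were tested (10281, with 1560 left out) in limma 3.58.1 (R 4.3.3) on log2(FPKM + 1). The fit had 4 genotype means, 4 residual degrees of freedom and an intensity trend, was two-sided and was adjusted by the Benjamini-Hochberg method over all tested genes in each comparison. The code was tested on simulated data. The interaction is the difference that STAT6 loss makes in T-bet-/- cells minus the one it makes where T-bet is present. Fold changes are ratios of mean FPKM over n = 2 libraries.

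Genes were named by rule: the cytokines Il4, Il13, Il3, Il22 and Il17a, the 10 largest margins above and below both, the 5 largest interactions each way, up to 4 members per list, 4 shared-offset genes each way, and the targeted genes, with 1 item left out that is not reported here. Others, such as Il21, Il5, Gzmb, Foxp3, Hspa5 and Hdc, were chosen after their values were seen. The members and 36 gene lists, 2 of them added late, were chosen with earlier results of these data known. Coordinates are from RefSeq GRCm38. Alternatives were median-of-ratios and quantile scaling, pseudocounts of 0.1 and 5, a filter of 5 FPKM or none, no intensity trend, summed lines, a replicate block, a fit of the 6 mutant libraries, other limits for the classes, additivity on linear FPKM and leaving out each library.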

Additional observations from a re-analysis of the deposited data

Results flagged for a closer look

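For each gene given here, the change with STAT6 loss differed between T-bet-/- and T-bet-sufficient cells by the limma test of the interaction, among the genes named by the rules of the report. Values are interactions on the log2(FPKM + 1) scale, and a positive value means a double-mutant level above the sum of the single differences. These flags are common, since 57.3% of tested genes had a called interaction.

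Among genes above both single mutants with a positive interaction, the type 3 cytokines and regulators were Il22 (3.20), Iltifb (2.98), Il23r (1.52), Il17a (0.98), Ccr6 (0.95), Il17f (0.78), Il1r1 (0.78) and Ccl20 (0.52). Membrane and secreted products were Tmem176b (2.30), Tmem176a (2.10), Vcam1 (1.97), Kit (1.87), Cpe (1.86), Npy (1.47), S1pr1 (1.39), Tnfrsf8 (1.23), Pkdcc (1.05) and Tnfsf14 (0.35), with the selectin ligand enzyme Fut7 at 0.54. Genes of growth and protein folding were Herpud1 (1.21), Mcm3 (0.98), Ccna2 (0.98), Cdc20 (0.95), Aurka (0.84), Sdf2l1 (0.75), Myc (0.61) and Manf (0.49). The position above both was lost under at least 1 alternative for S1pr1, Fut7, Cdc20, Aurka and Myc.

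Genes above both with a negative interaction, which were raised by each loss and less than the sum by both, were Zeb2 (-1.67), Il9 (-1.15), Pou2af1 (-0.63), Ikzf3 (-0.46), Acly (-0.30) and Hspa9 (-0.30). The position above both was not called for Zeb2 and Ikzf3 without STAT6-/- replicate 1 (adjusted p = 0.109 and 0.0876), STAT6-/- replicate 2 (0.0557 and 0.106) or double-mutant replicate 2 (0.0932 and 0.0753), for Hspa9 under the 4 alternatives given in the report, and for Il9 with a pseudocount of 0.1.

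Among genes with a mean below both single mutants, negative interactions were those of Il4 (-4.59), AA465934 (-3.61), Cd160 (-3.54), Il3 (-3.10), Il13 (-3.09), Ifng (-2.60), Ccl3 (-2.45), Sostdc1 (-1.79), Il15ra (-1.59), Dsp (-1.59), Cish (-0.98), Nkg7 (-0.97), Ikzf2 (-0.97), Lrrc32 (-0.77), Csf1 (-0.69), Spin4 (-0.54), Tnfaip3 (-0.40) and Ifi47 (-0.30). Il3 is in this group by its mean, and its position was called only without double-mutant replicate 1 and with quantile scaling. The position below both was lost under at least 1 alternative for Il4, AA465934, Il13, Dsp, Cish, Ikzf2, Tnfaip3 and Ifi47.

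Genes below both with a positive interaction, which were lowered by less than the sum of the single differences, were Nr4a2 (0.88), Ltb (0.63), Ctsw (0.60), Ccr7 (0.49), Cd27 (0.39) and Lta (0.37). The position below both was not called for Nr4a2 without STAT6-/- replicate 1 (adjusted p = 0.135) or 2 (0.059), nor for Ltb without STAT6-/- replicate 1 (0.0963), double-mutant replicate 1 (0.0527) or T-bet-/- replicate 1 (0.0541).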

How the results depend on the processing

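The number of genes above both single mutants was 105, and below both 53, when a margin of at least 0.5 was asked for. The shared-offset class held 283 genes with a limit of 0.1 and 3880 with a limit of 0.5. Leaving out 1 library at a time gave 222 to 708 genes above both and 145 to 350 below both, and 175 to 515 and 125 to 278 that also lay beyond WT. Under all other alternatives these counts and the interaction counts stayed within 1.5 times the reported ones. Among named genes with a called interaction, its sign turned for Il9 (3.90) and Nkg7 (1.197) on linear FPKM, by construction another measure of additivity, and among those with none called it differed in sign there for Ahr, Ccr8, Mir27a and Tnfrsf18. Over all named genes and alternatives the interaction was called as reported in 1390 cases, lost in 20 and gained in 23, and the margin in 1340, 93 and 2. The cause was not tested.

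The replicate numbers do not pair the libraries in the labels, and replicate differences of the genotypes correlated at -0.11 to 0.13. With the replicate block the counts were 428 above both, 314 below both, 2972 positive and 2780 negative interactions and 1661 shared-offset genes. With 2 libraries per genotype, differences close to the spread between libraries could not be resolved.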
